A study of Mus musculus with 18 samples.

Results

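The deviation of heterozygotes from the additive midpoint was measured in the uterus and in the ovary of mice that carry 0, 1 or 2 altered copies of Ifng, the gene of interferon gamma. All 18 of 18 RNA sequencing libraries entered it. The groups were ARE+/- uterus, ARE-/- uterus and WT uterus, and ARE+/- ovary, ARE-/- ovary and WT ovary, with 3 libraries in each and a total of 9 for each tissue. All mice were of the C57B6/J strain, were 20 to 25 weeks old and were untreated as far as the labels say. The genotypes are written as in the labels, and by background knowledge ARE is the AU-rich element that the Ifng transcript carries after its coding part. The labels name no driver that would restrict the alteration to a cell type. The design text speaks of 3 mice for each genotype, and it is not stated whether organs were taken from shared mice. The ovary libraries carry the replicate numbers 1, 2 and 4 in ARE+/- and 2, 3 and 6 in ARE-/-, and the titles of ARE-/- ovary replicate 6 and WT uterus replicate 1 mark them as backups. Estrous stages of the mice are not among the labels used here.

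Interferon gamma is released mainly by T cells and natural killer cells. It binds a receptor on most cell types and turns on guanylate-binding proteins, immunity-related GTPases, antigen presentation and chemokines such as CXCL9. The AU-rich element shortens the life of the Ifng transcript, so that its loss lets the transcript accumulate. A response that is additive puts the heterozygote at the midpoint of the homozygote and the wild type, a dominant response puts it at the homozygote, and a response that needs both copies leaves it at the wild type.

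The measure was ARE+/- minus the mean of ARE-/- and WT on the log2 scale, called the deviation below. A positive deviation means that ARE+/- lay above the log2 midpoint. Beside it stands the ratio of the ARE+/- effect to the ARE-/- effect, both against WT on the log2 scale, which is 0.5 at the midpoint, 1 where ARE+/- equals ARE-/- and 0 where it equals WT. The log2 midpoint is lower than the midpoint of the levels themselves, the linear midpoint, whenever ARE-/- and WT differ, so a gene can lie above one and below the other. Expression is given as CPM, the count of a gene relative to its library's total after TMM adjustment. Tests were edgeR's quasi-likelihood F-test with Benjamini-Hochberg adjustment over all genes of a tissue, and a gene was called where the adjusted p was under 0.05.

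Library totals ran from 33185496 to 49720354 counts for uterus and from 38132822 to 46647171 for ovary. The spread between replicates was wider in the uterus, with a common biological coefficient of variation of 0.411, against 0.281 in the ovary. Each tissue carried its own markers, and the ovary libraries carried those of the uterus as well. Sums over markers and the floors of 3 counts are relative to the plain library totals, without the TMM factor, which was 0.838 in ARE-/- uterus replicate 1. Summed CPM of 7 uterus markers were 2951 to 4210 in ARE+/- uterus, 2819 to 6780 in ARE-/- uterus and 5336 to 6180 in WT uterus, and those of 8 ovary markers were 1946 to 2265 in ARE+/- ovary, 858 to 2354 in ARE-/- ovary and 2387 to 4784 in WT ovary. In the ovary the uterus markers summed to 1460.5 to 2714 CPM in ARE+/-, 1679 to 3188 CPM in ARE-/- and 1657 to 2002 CPM in WT. These sums overlap those of the uterus, so the uterus markers do not separate the organs. Ovary markers in the uterus summed to 81.7 to 98.0 CPM in ARE+/-, 75.6 to 203 CPM in ARE-/- and 69.1 to 114 CPM in WT. ARE-/- uterus replicate 1 stood apart, with summed adipocyte markers of 13046 CPM, against 917 CPM in the lowest ARE-/- uterus library. Oviduct markers summed to 2571 to 3232 CPM in ARE+/- ovary and 3003 to 3454 CPM in ARE-/- ovary, against 1416 to 2077 CPM in WT ovary, and their part in the ovary results was not tested. In bulk tissue, fewer cells of a type and less RNA per cell cannot be told apart.

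Ifng itself (ENSMUSG00000055170, chromosome 10, 118276951 to 118281797, plus strand, in the GENCODE M32 annotation of the files) had 1.10, 0.920 and 1.93 CPM in ARE+/- uterus, 2.67, 3.15 and 1.68 CPM in ARE-/- uterus, and 0.107, 0.128 and 0 CPM in WT uterus. The ARE+/- and ARE-/- uterus libraries overlapped, and both groups lay above all WT libraries. Its deviation of 1.54 ± 0.57 (SE, n = 3 per group) had an unadjusted p of 0.0226 and was not called (edgeR adjusted p = 0.798), and ARE+/- reached a ratio of 0.81. On the linear scale the ARE+/- uterus mean of 1.32 CPM lay beside a linear midpoint of 1.29 CPM. With limma on log2(CPM + 1) the uterus deviation was 0.24, in place of 1.54. In the ovary Ifng had 0.471, 0.213 and 0.718 CPM in ARE+/-, 1.28, 0.966 and 1.24 CPM in ARE-/-, and 0.102, 0 and 0.10 CPM in WT, with no overlap between the 3 groups. The ovary deviation was 0.71 ± 0.60 (95% interval -0.62 to 2.04, edgeR adjusted p = 0.947). A library with 0 counts allows up to 0.0697 CPM in WT uterus replicate 3 and 0.0771 CPM in WT ovary replicate 2, from a floor of 3 counts. Such floors cover counting error only.

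Promoters of 6 genes are shown as examples, and the deviation was called for none of them. Irgm1, Tgtp1 and Psmb8 are 3 of the ovary genes in which each added copy gave a called step. Irf1 is an early interferon gamma target. Isg15 and Ifit3 stand for the type I interferon genes, and in both the ARE+/- uterus libraries overlapped the ARE-/- range. Capitals mark a GAS motif, TTCNNNGAA, an element of interferon gamma target genes, or the interferon-stimulated response pattern, GAAA followed by any 2 bases and GAAA again, read on both strands; overlapping matches run together. The sequences are from RefSeq on GRCm38.p6 and are written 5′ to 3′ in the direction of the gene.
Irgm1 (chr11:48871421-48871490, minus strand, bases 70 to 1 before the start): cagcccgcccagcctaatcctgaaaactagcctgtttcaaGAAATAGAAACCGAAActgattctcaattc
Tgtp1 (chr11:48992274-48992374, minus strand, bases 128 to 28 before the start): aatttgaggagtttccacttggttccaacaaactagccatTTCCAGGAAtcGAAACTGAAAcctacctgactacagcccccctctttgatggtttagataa
Psmb8 (chr17:34198058-34198146, plus strand, bases 137 to 49 before the start): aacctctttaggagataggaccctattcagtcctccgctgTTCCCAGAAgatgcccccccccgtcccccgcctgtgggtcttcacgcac
Irf1 (chr11:53769884-53769972, plus strand, bases 130 to 42 before the start): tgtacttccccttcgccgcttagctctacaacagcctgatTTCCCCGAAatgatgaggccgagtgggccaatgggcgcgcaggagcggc
Isg15 (chr4:156200835-156200936, minus strand, bases 118 to 17 before the start): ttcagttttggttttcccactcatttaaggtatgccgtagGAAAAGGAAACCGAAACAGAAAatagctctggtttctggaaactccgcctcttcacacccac
Ifit3 (chr19:34583333-34583456, plus strand, bases 196 to 73 before the start): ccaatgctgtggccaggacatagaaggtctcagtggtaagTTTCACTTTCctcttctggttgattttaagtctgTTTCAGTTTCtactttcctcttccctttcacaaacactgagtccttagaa
Within 250 bases before the start, 8.13% of all 27025 genes of the promoter table held the GAS motif and 3.46% held the response pattern. In the guanylate-binding and immunity-related GTPase list, 12 of 21 genes had an entry, of which 7 (58.3%) held GAS and 11 (91.7%) the response pattern. In the interferon gamma list, 24 of 40 had an entry, of which 11 (45.8%) held GAS and 11 (45.8%) the response pattern. Of 12 class I genes with an entry 1 (8.33%) held GAS and 3 (25%) the pattern, of 9 class II genes 1 (11.1%) and 1 (11.1%), and of 10 peptide loading and immunoproteasome genes 1 (10%) and 0 (0%). In the type I interferon list, 20 of 29 had an entry, of which 3 (15%) held GAS and 9 (45%) the response pattern. All 12 of the genes with 2 called steps had an entry, of which 4 (33.3%) held GAS and 4 (33.3%) the response pattern. A match is a description of these letters and no measure of binding.

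No gene deviated from the midpoint at the adjusted threshold in either tissue. In the uterus 0 of 24277 genes were called for the deviation (0%), with a smallest edgeR adjusted p of 0.253, and 1347 (5.55%) had an unadjusted p under 0.05, of which 955 lay above the midpoint (3.93%) and 392 below (1.61%). In the ovary 0 of 24457 were called (0%), with a smallest edgeR adjusted p of 0.271, and 1373 (5.61%) passed unadjusted, 778 above (3.18%) and 595 below (2.43%). DESeq2 on the same contrast called 103 uterus and 34 ovary genes, and limma called 0 in each. Leaving out 1 library gave 3 called genes without ARE+/- uterus replicate 3 (Il1b, S100a8 and S100a9), 1 without WT uterus replicate 2 (Krt76), 1 without ARE+/- ovary replicate 2 (Psmb9) and 1 without ARE-/- ovary replicate 3 (Nlrc5). Over all genes, 49.2% of uterus and 53.4% of ovary genes lay above the midpoint.

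The genes called for ARE-/- against WT leaned to the ARE-/- side of the midpoint. These were 911 in the uterus (3.75%), of which 95 fell (0.391%), and 2558 in the ovary (10.5%), of which 1014 fell (4.15%). ARE+/- against WT called 276 uterus genes (1.14%), 13 of them lower (0.0535%), and 417 ovary genes (1.71%), 87 of them lower (0.356%). Of the 911 uterus genes called for ARE-/-, ARE+/- lay nearer to ARE-/- than to WT in 736 (80.8%), with a median ratio of 0.72 (quartiles 0.56 and 0.85). Of the 2558 ovary genes it did so in 1913 (74.8%), with a median ratio of 0.64 (quartiles 0.50 and 0.78). ARE+/- differed from WT in the same direction as ARE-/- in 904 of 911 uterus genes and 2536 of 2558 ovary genes. The genes were chosen by a contrast that shares the ARE-/- and WT libraries with the deviation, so these shares are a description. The number of called genes rested on single libraries: for the uterus, leaving out WT replicate 3 gave 192, WT replicate 1 gave 203, ARE+/- replicate 2 gave 552 and ARE+/- replicate 1 gave 603. For the ovary, leaving out WT replicate 1 gave 785, WT replicate 3 gave 1219, ARE-/- replicate 2 gave 1337 and WT replicate 2 gave 1480. The share on the ARE-/- side stayed between 64.2% and 92.6% in the uterus and between 61.8% and 84.3% in the ovary when any 1 library was left out.

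**Figure D1:**
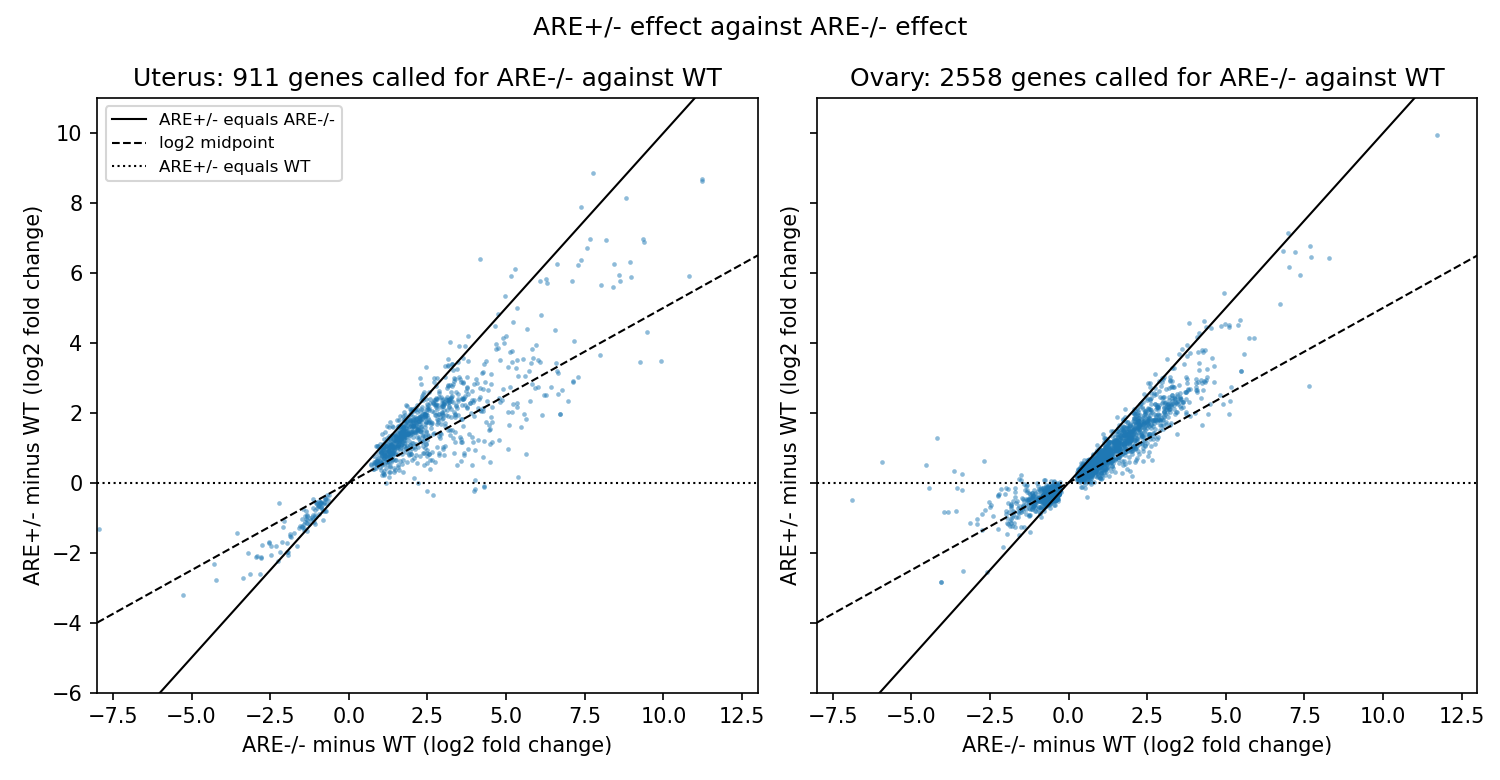
Each point is a gene called for ARE-/- against WT, with its ARE-/- minus WT log2 fold change on the x axis and its ARE+/- minus WT log2 fold change on the y axis, for the uterus and the ovary. The lines mark ARE+/- equal to ARE-/- (solid), the log2 midpoint (dashed) and ARE+/- equal to WT (dotted). Most of the 911 uterus and 2558 ovary genes lie between the dashed and the solid line.

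The position depended on the scale and on the direction of the ARE-/- effect. Of the 816 uterus genes that rose in ARE-/-, 646 lay above the log2 midpoint with a median deviation of 0.45, and 356 lay below the linear midpoint. Of the 1544 that rose in ARE-/- ovary, 1249 lay above the log2 midpoint with a median deviation of 0.16, and 629 below the linear midpoint. A gene can be nearer to ARE-/- in log2 and nearer to WT in CPM, and 186 uterus and 334 ovary genes of those that rose did this. Of the genes that fell in ARE-/-, 90 of 95 in the uterus and 664 of 1014 in the ovary lay nearer to ARE-/-, with median deviations of -0.40 and -0.047.

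**Figure D2:**
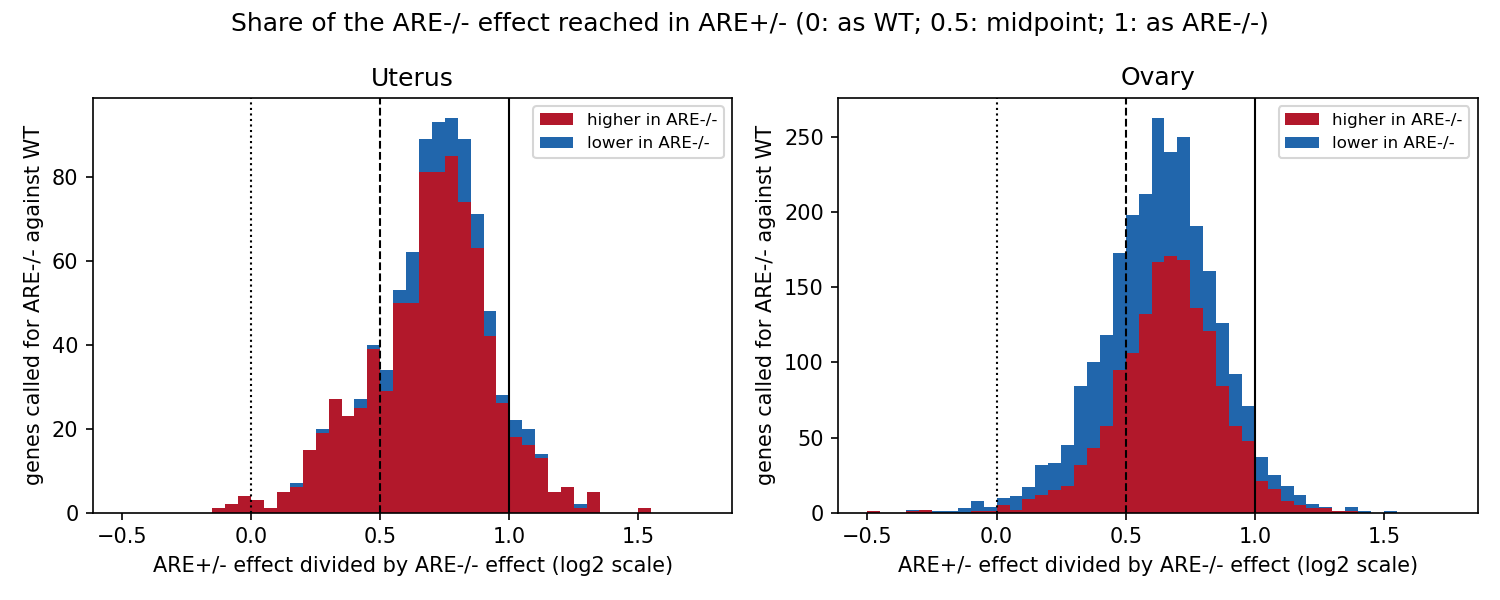
Histograms of the ratio of the ARE+/- effect to the ARE-/- effect (log2 scale, x axis) over genes called for ARE-/- against WT (number of genes, y axis), split into genes higher and genes lower in ARE-/-. Values beyond the axis are drawn in the end bins. Lines stand at 0 (as WT), 0.5 (midpoint) and 1 (as ARE-/-), and the medians are 0.72 in the uterus and 0.64 in the ovary.

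A grouping by unadjusted p-values under 0.05, chosen after the values were seen, gives the kinds of response as a description. In the uterus, 259 of the 911 genes (28.4%) had an ARE+/- step from WT, no passing step from ARE+/- to ARE-/- and a position beyond the midpoint. A dominant response would give this pattern, but a step that did not pass is not shown to be absent. Both steps were present in 233 (25.6%), of which 53 lay beyond the midpoint and 180 were not apart from it. The pattern of a need for both copies, no first step, a second step and a position short of the midpoint, was found for 12 (1.32%). In the ovary the same patterns held for 323 (12.6%), 500 (19.5%) and 42 (1.64%) of 2558 genes. The remaining genes passed only some of these tests and were not placed. Over all genes, 5.55% in the uterus and 5.61% in the ovary passed unadjusted for the deviation in either direction. The shares of 1.32% and 1.64% lie below these, so the number of such genes does not show a class of response. Some of the 42 ovary genes had a mean under 1 CPM, such as Nyap2 at 0.157 CPM. Replicates spread wider in the uterus (coefficient of variation 0.411, against 0.281 in the ovary), where a step is harder to pass. The shares of the 2 organs therefore do not compare kinds of response.

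Genes that interferon gamma induces lay above the log2 midpoint and near the linear one in both organs. The list holds 40 genes, of which 40 were tested in the uterus and 39 in the ovary. In the uterus 33 of 40 lay above the log2 midpoint, against 49.2% of all genes, with a median deviation of 0.63 against -0.0058 over all genes. Above it 20 passed unadjusted and below it 1, against 3.93% and 1.61% of all genes. The ARE-/- effect was called as a rise for 35, the ARE+/- effect for 25, where all genes gave 3.36% and 1.08%. In the ovary 35 of 39 lay above, against 53.4% of all genes, with a median deviation of 0.51 against 0.016 over all genes. Above the midpoint 25 passed unadjusted, against 3.18% of all genes. Rises were called for 37 in ARE-/- ovary and 30 in ARE+/- ovary, where all genes gave 6.31% and 1.35%. Against the linear midpoint the list's median was -0.17 in the uterus and -0.22 in the ovary, with 26 of 40 and 33 of 39 below it. Without ARE+/- uterus replicate 3 the uterus median deviation was 0.27.

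Cxcl9, the chemokine that draws activated T cells, had 34.6, 19.6 and 28.3 CPM in ARE+/- ovary, 59.7, 101 and 92.3 CPM in ARE-/- ovary, and 0.767, 1.07 and 0.552 CPM in WT ovary. The groups did not overlap, and ARE+/- was far nearer to ARE-/- in log2. Its deviation of 1.74 ± 0.24 (95% interval 1.21 to 2.28) was not called (edgeR adjusted p = 0.377), and the ratio was 0.76. In the uterus Cxcl9 had 16.0, 10.8 and 20.4 CPM in ARE+/-, 110, 84.1 and 50.8 CPM in ARE-/-, and 1.61, 1.24 and 1.60 CPM in WT. The uterus groups did not overlap either, but the ratio was 0.59 and the deviation 0.52 ± 0.26 (edgeR adjusted p = 0.913). In CPM, ARE+/- lay below the linear midpoint in both, by -1.40 in the uterus and -0.63 in the ovary on the log2 scale.

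Irf1, a transcription factor that interferon gamma induces, had 111, 101 and 161 CPM in ARE+/- uterus, 159, 176 and 172 CPM in ARE-/- uterus, and 52.4, 50.3 and 40.6 CPM in WT uterus. ARE+/- replicate 3 was the highest of its group and reached the lowest ARE-/- library, and all lay above WT. The deviation was 0.47 ± 0.17 in the uterus (edgeR adjusted p = 0.798) and 0.28 ± 0.11 in the ovary (edgeR adjusted p = 0.884). Cd274, the inhibitory ligand PD-L1, deviated by 0.81 ± 0.20 in the uterus and 0.42 ± 0.18 in the ovary. Both genes rose in ARE+/- against WT in both tissues, with edgeR adjusted p of 0.0146 or less.

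The guanylate-binding proteins and immunity-related GTPases, which attack pathogens inside cells, gave steps from both copies by unadjusted tests. All 21 rose in ARE-/- of both tissues, and 18 rose in ARE+/- uterus and 20 in ARE+/- ovary. Over all genes, rises were called for 3.36% in ARE-/- and 1.08% in ARE+/- uterus, and for 6.31% and 1.35% in the ovary. The list had a median deviation of 0.76 in the uterus and 0.52 in the ovary. Above the midpoint 15 and 17 genes passed unadjusted, against 3.93% and 3.18% of all genes. At the adjusted threshold the step from ARE+/- to ARE-/- was called for 0 of the 21 in the uterus and 4 in the ovary. Over all genes that step was called for 0% and 0.0491%. By unadjusted tests 16 of 21 uterus genes and 19 of 21 ovary genes took both steps. Among all genes called in ARE-/- these shares were 25.6% and 19.5%. Iigp1 had 213, 115 and 161 CPM in ARE+/- ovary, 328, 414 and 325 CPM in ARE-/- ovary, and 15.5, 22.1 and 13.2 CPM in WT ovary, with no overlap. Its ratio was 0.74 in both tissues. Without ARE+/- uterus replicate 3 the uterus median was 0.39.

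Each added copy gave a called rise for 12 ovary genes, and for 0 uterus genes. In the ovary ARE-/- against ARE+/- called 12 of 24457 genes (0.0491%), all higher in ARE-/-, and all 12 also rose in ARE+/- against WT. They were the GTPase genes Irgm1, Tgtp1, Tgtp2, Ifi47 and Gm12185, the class I genes H2-K1, H2-Q4, H2-Q6 and H2-Q7, the peptide transporter gene Tap1, and Psmb8 and Psmb9 of the immunoproteasome. The steps were 1.34 to 3.01 in log2 from WT to ARE+/- and 0.90 to 1.39 from ARE+/- to ARE-/-, the second with edgeR adjusted p of 0.0448 to 0.0487. These second steps lay close to the threshold. Leaving out any ARE+/- library, ARE-/- replicate 2 or 3, or WT replicate 1 left 0 genes with both steps called, leaving out WT replicate 2 left 5 and WT replicate 3 left 7. Likewise no gene had both steps called with a filter of at least 1 CPM, and 29 had with no filter. The H2-Q genes and the Tgtp genes are near-identical copies, and reads that map to several were counted for each. In the uterus, ARE-/- against ARE+/- called 0 of 24277 genes (0%) by edgeR, and DESeq2 gave 57 genes with both steps.

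Irgm1, a GTPase that guards membranes against its own family, came nearest to the midpoint among them. It had 89.9, 81.9 and 95.2 CPM in ARE+/- ovary, 169, 200 and 168 CPM in ARE-/- ovary, and 32.5, 38.4 and 34.2 CPM in WT ovary. The groups were well apart, with a deviation of 0.17 ± 0.09 (95% interval -0.032 to 0.37, edgeR adjusted p = 0.906) and a ratio of 0.57. Full dominance would have needed a deviation of 0.5 times the ARE-/- effect of 2.35, and the interval stops short of that. In the uterus Irgm1 had 123, 118 and 228 CPM in ARE+/-, 177, 231 and 210 CPM in ARE-/-, and 39.7, 42.1 and 39.6 CPM in WT. There replicate 3 of ARE+/- lay within the ARE-/- range, and the ratio was 0.83.

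Tap1, which carries peptides to class I molecules, had the smallest p of the ovary. It had 146, 124 and 143 CPM in ARE+/- ovary, 257, 274 and 241 CPM in ARE-/- ovary, and 28.7, 32.3 and 26.4 CPM in WT ovary. The 3 groups were far apart, and the ARE+/- mean of 137 CPM lay between the log2 midpoint of 86.6 CPM and the linear midpoint of 143 CPM. The deviation was 0.67 ± 0.09 (95% interval 0.47 to 0.86, unadjusted p = 1.5e-05, edgeR adjusted p = 0.271). Psmb9 deviated by 0.76 ± 0.10 (edgeR adjusted p = 0.271) and Nlrc5, the activator of class I genes, by 0.75 ± 0.12 (edgeR adjusted p = 0.498). With no filter on low counts these 3 deviations were called, at adjusted p of 0.00849, 0.00849 and 0.0323. DESeq2 called them too.

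**Figure D3:**
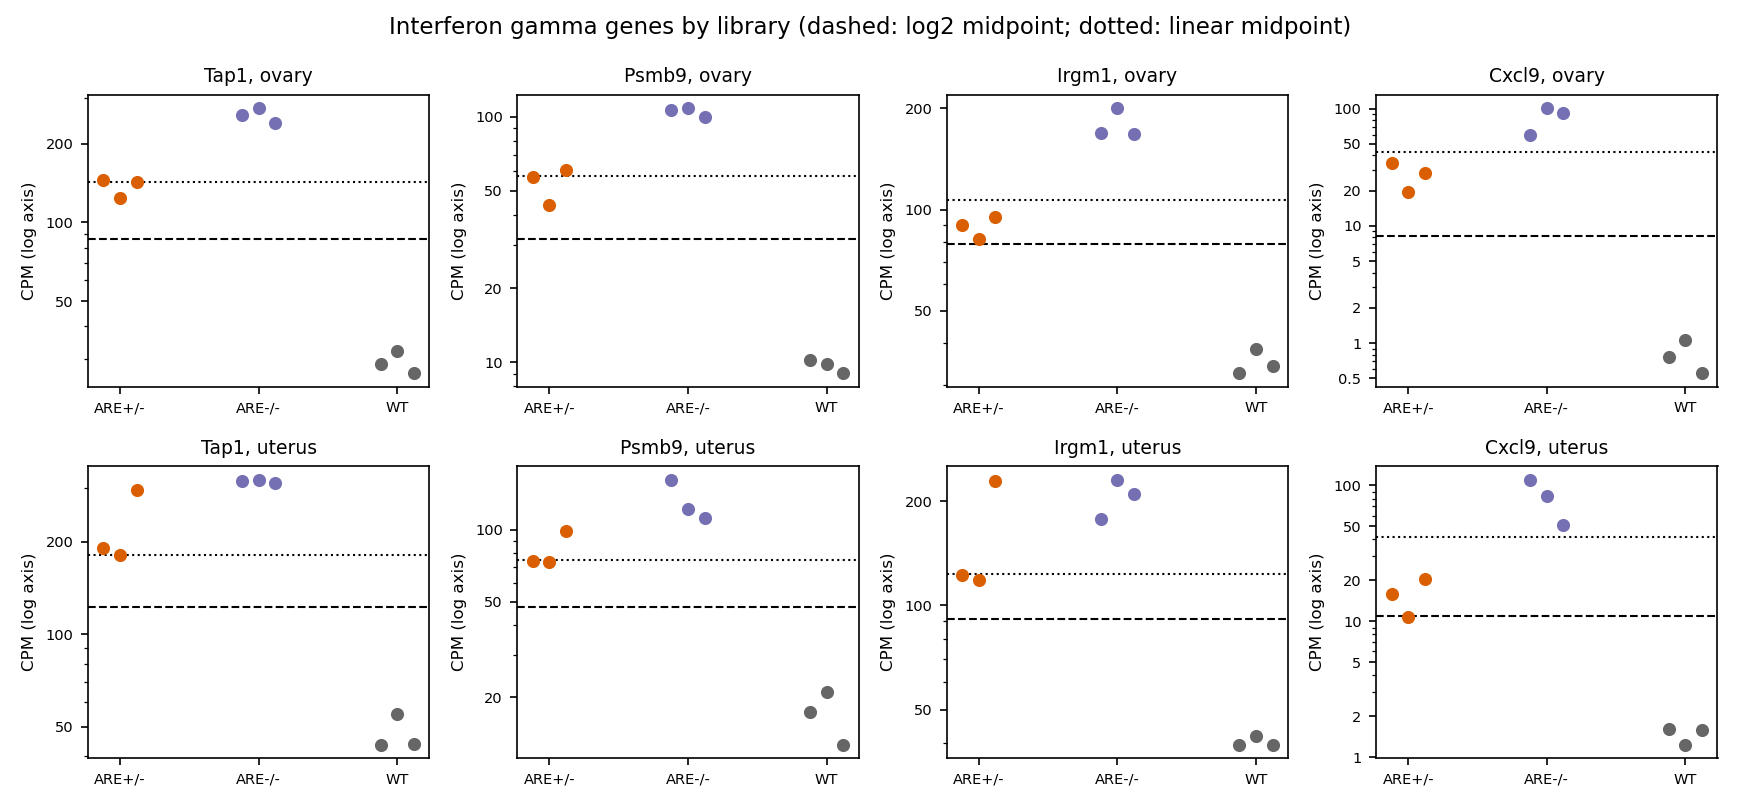
Levels of Tap1, Psmb9, Irgm1 and Cxcl9 by library (CPM, log axis) in ARE+/-, ARE-/- and WT ovary (upper panels) and uterus (lower panels), 1 point per library. The dashed line is the log2 midpoint and the dotted line the linear midpoint of the ARE-/- and WT means. In the ovary ARE+/- Tap1 lay at 124 to 146 CPM, above a log2 midpoint of 86.6 CPM and around a linear midpoint of 143 CPM.

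The class I list was nearer to dominant in the uterus than the GTPases were, against the linear midpoint and by the unadjusted grouping. That difference was not tested. All 16 class I genes lay above the log2 midpoint in the uterus, 13 of them with an unadjusted p under 0.05, against 3.93% of all genes. Their median deviation was 0.76, as for the GTPases. Against the linear midpoint their median was 0.30, and that of the GTPases was -0.16. By the unadjusted grouping 11 of the 15 called in ARE-/- uterus had a first step alone, against 3 of 21 GTPases and 28.4% of all genes called there. In the ovary 12 of 13 took both steps, against 19.5% of all genes called there. A second step that did not pass in the uterus, the tissue with the wider spread, is not shown to be absent. H2-Q6 had 440, 544 and 714 CPM in ARE+/- uterus, 706, 658 and 879 CPM in ARE-/- uterus, and 66.2, 83.2 and 68.0 CPM in WT uterus. ARE+/- replicate 3 overlapped the ARE-/- libraries, and the deviation of 1.28 ± 0.19 (edgeR adjusted p = 0.253) gave a ratio of 0.88. B2m, the shared light chain, deviated by 0.82 ± 0.21 in the uterus and 0.44 ± 0.15 in the ovary. In the ovary the class I list had a median deviation of 0.53 and lay at -0.072 against the linear midpoint.

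The peptide loading and immunoproteasome list, 12 genes, had smaller medians of 0.18 in the uterus and 0.14 in the ovary. Of its 8 genes called in ARE-/- uterus, 0 had a first step alone beyond the midpoint and 5 took both steps, by the unadjusted grouping. Among all genes called there these shares were 28.4% and 25.6%. Class II genes, which present to CD4 T cells, had median deviations of 0.71 in the uterus and 0.60 in the ovary. Of the 12, 9 and 8 passed unadjusted above, against 3.93% and 3.18% of all genes. H2-Aa had 448, 357 and 513 CPM in ARE+/- ovary, 935, 930 and 610 CPM in ARE-/- ovary, and 77.4, 124 and 97.6 CPM in WT ovary. The groups did not overlap, and the ratio was 0.70, against 0.73 in the uterus. Ciita, the master activator of class II, deviated by 0.76 ± 0.29 in the uterus and 0.67 ± 0.14 in the ovary.

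Type I interferon genes had different values in the 2 organs. In the fit of ARE+/- uterus 22 of 27 lay above ARE-/-, which rested on replicate 3 as given below. Above the log2 midpoint lay 26, and 21 passed unadjusted (77.8%, against 3.93% of all genes), with a median deviation of 0.91. Few of the underlying effects were called, 2 rises in ARE+/- and 5 in ARE-/- uterus, where all genes gave 1.08% and 3.36%. In the ovary 21 of 27 rose in ARE-/- and 6 in ARE+/-, where all genes gave 6.31% and 1.35%. There 0 lay above ARE-/-, 1 passed unadjusted above (3.70%, against 3.18% of all genes) and the median deviation was 0.23. The uterus value leaned on ARE+/- replicate 3, whose median position was 1.48 above the midpoint, against 0.33 and 0.50 in replicates 1 and 2. The median deviation without it was 0.43. Median positions of the ARE-/- uterus libraries were 0.36, 0.59 and 0.79, so only ARE+/- replicate 3 lay above them.

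Isg15, a ubiquitin-like antiviral protein, had 19.6, 20.8 and 37.1 CPM in ARE+/- uterus, 21.3, 14.8 and 16.6 CPM in ARE-/- uterus, and 7.72, 12.5 and 4.88 CPM in WT uterus. ARE+/- overlapped ARE-/- and lay above all WT libraries. The deviation was 1.09 ± 0.31 (95% interval 0.41 to 1.77, edgeR adjusted p = 0.664). Ifit3, an antiviral protein of the same response, had 29.1, 35.3 and 95.7 CPM in ARE+/- uterus, 49.0, 31.8 and 57.3 CPM in ARE-/- uterus, and 7.56, 11.1 and 7.81 CPM in WT uterus. It also overlapped ARE-/- and stood clear of WT, with a deviation of 1.40 ± 0.35, which was 0.68 without ARE+/- replicate 3. Mx1 overlapped across all 3 uterus groups and deviated by 0.54 ± 0.45. In the ovary Isg15 had 12.7, 11.1 and 14.4 CPM in ARE+/-, 18.6, 19.5 and 13.9 CPM in ARE-/-, and 6.65, 6.57 and 4.27 CPM in WT. There ARE+/- lay between the others with an overlap between ARE+/- replicate 4 and ARE-/- replicate 6, and the deviation was 0.34 ± 0.18.

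**Figure D4:**
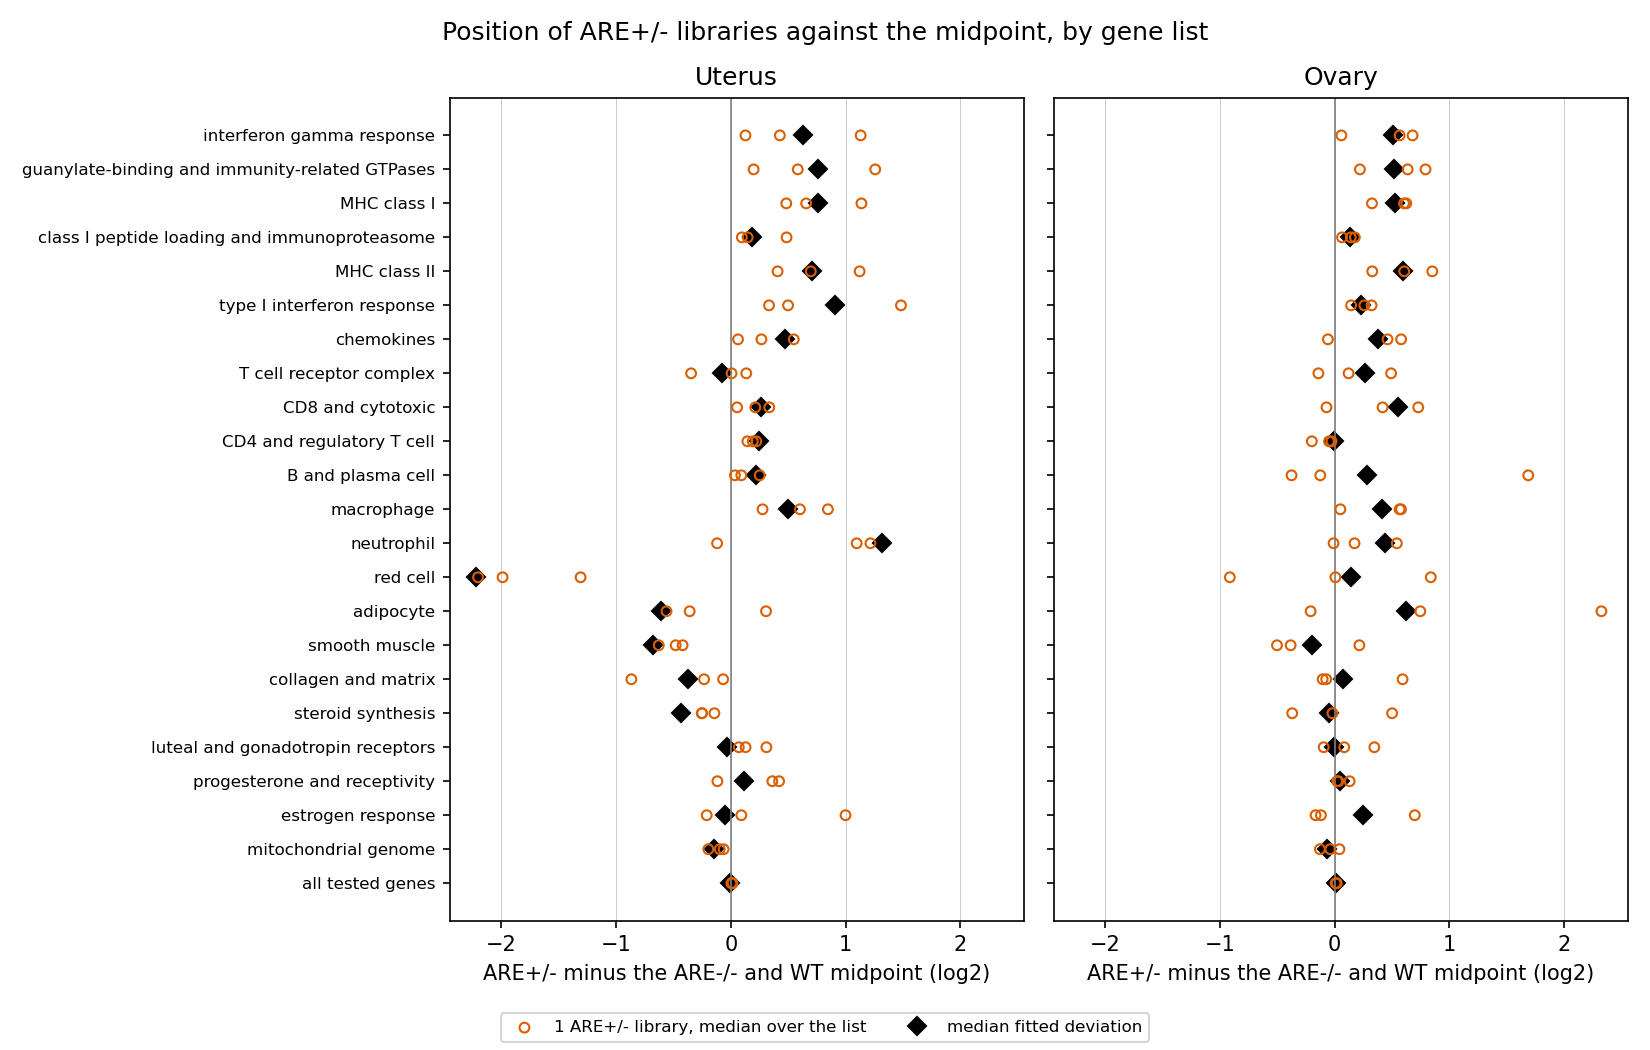
Positions against the log2 midpoint by gene list (x axis, log2), for the uterus and the ovary. Open circles are the 3 ARE+/- libraries, each the median over the list, and diamonds are the median fitted deviation. In the uterus the interferon gamma list sits at 0.63, the GTPases at 0.76 and the type I interferon list at 0.91, the T cell receptor list at -0.078 and the red cell list at -2.22.

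The interferon signalling and feedback list, 17 genes that include the receptor chains and the kinases bound to them, had a median deviation of 0.033 in the uterus, with 9 above the midpoint, and 0.025 in the ovary, with 10 above.

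T cell receptor genes lay near the log2 midpoint in the uterus. The T cell receptor list, 17 genes, had a median deviation of -0.078, with 7 above the midpoint, 0 passing unadjusted and all 17 below the linear midpoint. Rises were called for 15 in ARE-/- uterus and 4 in ARE+/- uterus, where all genes gave 3.36% and 1.08%. By the unadjusted grouping 14 of those 15 took both steps without leaving the midpoint. Both steps were present in 25.6% of all genes called in ARE-/- uterus. Cd3e, a chain of the receptor, had 3.97, 4.60 and 4.91 CPM in ARE+/- uterus, 9.19, 14.1 and 16.1 CPM in ARE-/- uterus, and 1.47, 1.90 and 2.00 CPM in WT uterus. The groups did not overlap. The deviation was -0.11 ± 0.24, and its 95% interval of -0.66 to 0.44 does not reach 0.5 times the ARE-/- effect of 2.87, where full dominance would lie. Cd4 deviated by 0.05 ± 0.32. The CD4 and regulatory T cell list had a median deviation of 0.24 in the uterus, with all 9 genes above the midpoint, against 49.2% of all genes.

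Cd8a, a chain of the CD8 receptor of cytotoxic T cells, lay above the log2 midpoint and below the linear one in both organs. It had 3.80, 4.30 and 5.05 CPM in ARE+/- uterus, 13.2, 16.7 and 17.2 CPM in ARE-/- uterus, and 0.214, 0.534 and 0.381 CPM in WT uterus. In the ovary it had 4.42, 3.01 and 3.13 CPM in ARE+/-, 8.66, 12.3 and 6.89 CPM in ARE-/-, and 0.460, 0.611 and 0.602 CPM in WT. The groups were apart in both tissues. It deviated by 0.84 ± 0.27 in the uterus and by 0.62 ± 0.23 in the ovary, with ratios of 0.66 and 0.65, and neither was called (edgeR adjusted p = 0.744 and 0.884). Its partner Cd8b1 deviated by 0.87 ± 0.30 and 0.15 ± 0.27. The CD8 and cytotoxic list had median deviations of 0.26 in the uterus and 0.55 in the ovary. Of its 19 genes, 3 and 5 passed unadjusted above, against 3.93% and 3.18% of all genes. Against the linear midpoint the list's median was 0.077 in the uterus, with 9 of 19 below it, and -0.071 in the ovary, with 12 of 19 below it. In the ovary the T cell receptor list had a median deviation of 0.26. Of its 17 genes, 15 rose in ARE-/- and 3 in ARE+/-, where all genes gave 6.31% and 1.35%.

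Summed markers of T cells were 19.0 to 22.4 CPM in ARE+/- uterus, 44.0 to 65.5 CPM in ARE-/- uterus and 5.0 to 5.41 CPM in WT uterus, and in the ovary 12.4 to 20.4, 23.8 to 55.1 and 4.48 to 5.12 CPM in the same order of genotypes. These markers move with the interferon gamma genes above, and their part in those results was not tested.

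Myeloid genes in ARE+/- uterus stood at or above the ARE-/- level in part. The neutrophil list, 12 genes tested, had a median deviation of 1.31 in the uterus, with 7 passing unadjusted above, against 3.93% of all genes. Rises were called for 2 in ARE+/- and 3 in ARE-/- uterus, where all genes gave 1.08% and 3.36%. In 5 of the 12 all ARE+/- libraries lay above the midpoint, against 24.6% of all genes. Csf3r, the receptor of the granulocyte growth factor, had 66.3, 54.6 and 23.2 CPM in ARE+/- uterus, 37.8, 32.1 and 58.4 CPM in ARE-/- uterus, and 4.85, 7.83 and 5.55 CPM in WT uterus. ARE+/- overlapped ARE-/- and lay above all WT libraries, giving a ratio of 1.06 and a deviation of 1.57 ± 0.31 (edgeR adjusted p = 0.411). S100a8, a neutrophil granule protein, had 67.2, 43.9 and 0.635 CPM in ARE+/- uterus, 45.3, 32.4 and 52.7 CPM in ARE-/- uterus, and 1.72, 0.683 and 0.953 CPM in WT uterus. Its ARE+/- libraries split, with replicate 3 at the WT level, and without that replicate S100a8, S100a9 and Il1b were called above the midpoint. Summed neutrophil markers were 267, 177 and 25.9 CPM in the ARE+/- uterus libraries, against 130 to 202 CPM in ARE-/- and 7.46 to 10.2 CPM in WT.

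The macrophage list, 18 genes, had median deviations of 0.50 in the uterus and 0.41 in the ovary. Above the midpoint 4 and 8 passed unadjusted, against 3.93% and 3.18% of all genes. C1qa, C1qb and C1qc, which macrophages make for the complement cascade, deviated by 0.65 to 0.72 in the ovary with ratios of 0.79 to 0.83, and all rose in ARE+/- ovary. Summed macrophage markers were 234 to 323 CPM in ARE+/- ovary, 258 to 457 CPM in ARE-/- ovary and 117 to 151 CPM in WT ovary, and their part in these values was not tested. C4b had 197, 214 and 456 CPM in ARE+/- uterus, 1561, 534 and 1040 CPM in ARE-/- uterus, and 104, 126 and 106 CPM in WT uterus, with a ratio of 0.42. Its deviation was -0.24 ± 0.36 in the uterus and 0.43 ± 0.28 in the ovary.

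Red cell genes in the uterus had, by unadjusted tests, the pattern of a need for both copies. Hba-a2, an alpha globin whose near-identical copy Hba-a1 shares its reads, had 62.3, 30.6 and 34.5 CPM in ARE+/- uterus, 2101, 347 and 223 CPM in ARE-/- uterus, and 52.7, 27.0 and 56.1 CPM in WT uterus. ARE+/- overlapped WT, and every ARE-/- library lay above both. The deviation was -2.24 ± 0.72 (95% interval -3.86 to -0.62, edgeR adjusted p = 0.744) at a ratio of -0.021, and DESeq2 called it (adjusted p = 0.0269). Alas2, the first enzyme of heme synthesis in red cells, deviated by -1.69 ± 0.55. Slc1a3, a glutamate transporter not counted here as a red cell gene, was named for its low ratio and deviated by -1.48 ± 0.52. Of the 7 red cell genes tested, 5 rose in ARE-/- uterus, 0 in ARE+/- uterus, and 6 passed unadjusted below the midpoint. Over all uterus genes these shares were 3.36%, 1.08% and 1.61%. Summed red cell markers were 127 to 237 CPM in ARE+/-, 843 to 6084 CPM in ARE-/- and 99.2 to 214 CPM in WT uterus, and the part of blood in these values was not tested. Without ARE-/- replicate 1 the list's median was -1.43 in place of -2.22. In the ovary Hba-a2 deviated by 0.14 ± 0.45 and 0 red cell genes were called in either genotype, against 10.5% of all genes for ARE-/-.

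Adipocyte genes passed the test in ARE-/- uterus and not in ARE+/- uterus, where their values were also above WT. All 13 tested rose in ARE-/- uterus, with a median log2 fold change of 6.22, and 0 were called in ARE+/- uterus, where the median was 2.51. Over all uterus genes, rises were called for 3.36% in ARE-/- and 1.08% in ARE+/-. Plin1, which coats fat droplets, had 28, 17 and 18.3 CPM in ARE+/- uterus, 641, 125 and 64 CPM in ARE-/- uterus, and 3.06, 4.89 and 3.19 CPM in WT uterus. The 3 groups did not overlap. The list's median deviation was -0.61, and -2.46 against the linear midpoint, and no gene passed unadjusted. Without ARE-/- replicate 1, which had 13046 of the summed adipocyte CPM against 1604 and 917 in the other two ARE-/- libraries, the median deviation was 0.27. In the ovary the adipocyte list deviated by 0.62 with 0 genes called, and its libraries were spread over 42.9 to 1912 summed CPM in ARE-/-.

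**Figure D5:**
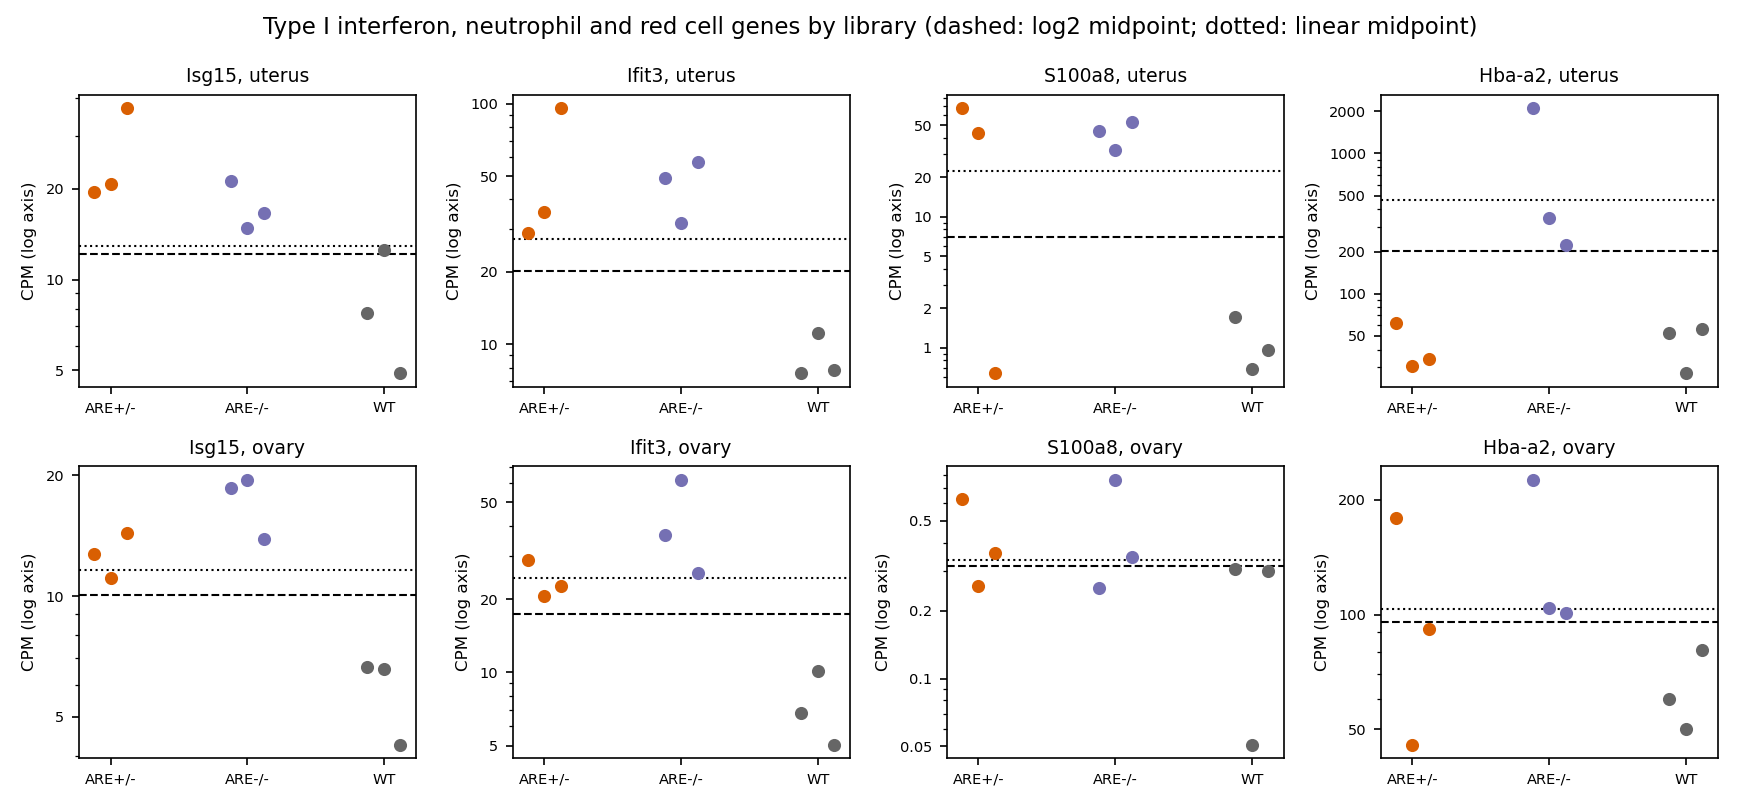
Levels of Isg15, Ifit3, S100a8 and Hba-a2 by library (CPM, log axis) in ARE+/-, ARE-/- and WT uterus (upper panels) and ovary (lower panels), 1 point per library. Dashed and dotted lines are the log2 and linear midpoints of the ARE-/- and WT means. In the uterus Hba-a2 lay at 30.6 to 62.3 CPM in ARE+/- and 223 to 2101 CPM in ARE-/-, against 27.0 to 56.1 CPM in WT.

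Some ARE+/- values lay outside the range from ARE-/- to WT. Of the genes called for ARE-/-, the ratio was above 1 for 75 of 911 in the uterus and 109 of 2558 in the ovary, and below 0 for 7 and 22. Aldh1a3, an enzyme that makes retinoic acid, had 20.2, 14.9 and 7.04 CPM in ARE+/- uterus, 8.86, 6.37 and 9.04 CPM in ARE-/- uterus, and 0.858, 0.448 and 1.31 CPM in WT uterus. It overlapped ARE-/- in replicate 3, with a ratio of 1.25 and a deviation of 2.40 ± 0.37 (edgeR adjusted p = 0.253). The immunoglobulin segment Igkv4-80 had 3.86, 6.75 and 1.99 CPM in ARE+/- uterus, 0.889, 1.09 and 0.719 CPM in ARE-/- uterus, and 0, 0.0427 and 0.0953 CPM in WT uterus. All ARE+/- libraries lay above all others. Segments of this kind share sequence, and reads that fit several were counted for each, so the single segment is uncertain. Muc13, a cell surface mucin, and Cd300lf, a myeloid receptor, had ratios of 1.35 and 1.32. Among ovary genes of at least 1 CPM with a called log2 fold change of at least 2 in ARE-/-, the highest ratios were 1.13 for Adgre4, a myeloid receptor, and for the segment Ighv5-9-1, and 1.10 for Tnf.

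Genes below the midpoint in the uterus included several that ARE-/- left near WT. F13a1, the clotting factor subunit that resident macrophages make, had 10.5, 12 and 15 CPM in ARE+/- uterus, 45.0, 26.4 and 24.3 CPM in ARE-/- uterus, and 33.1, 28.2 and 33.7 CPM in WT uterus. ARE+/- was the lowest group with no overlap. It fell in ARE+/- against WT by 1.34 on the log2 scale (edgeR adjusted p = 0.0456), and the deviation was -1.34 ± 0.24 (edgeR adjusted p = 0.306). Medag and Fam43a also fell in ARE+/- uterus (edgeR adjusted p = 0.0326 and 0.0333), with deviations of -1.04 ± 0.24 and -0.69 ± 0.15. Angpt4, a ligand of the vessel receptor Tie2, and Tacr1, the receptor of substance P, deviated by -1.88 ± 0.39 and -1.44 ± 0.33. The smooth muscle list, 11 genes, had a median of -0.68 with 0 above the midpoint and 0 passing unadjusted. Acta2 had 1495, 1607 and 1130 CPM in ARE+/- uterus, 4037, 1237 and 1074 CPM in ARE-/- uterus, and 2384, 2496 and 2452 CPM in WT uterus. The ARE-/- value rests on replicate 1, and without it the list's median was -0.29. Collagen and matrix genes had a median of -0.37, with 16 of 18 below the midpoint.

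In the ovary the chaperone gene Hsph1 led the genes below the midpoint. It had 84.1, 86.1 and 96.5 CPM in ARE+/- ovary, 135, 179 and 221 CPM in ARE-/- ovary, and 122, 111 and 122 CPM in WT ovary. ARE+/- was lowest and ARE-/- highest, with no overlap. The deviation was -0.71 ± 0.14 (95% interval -1.01 to -0.40, edgeR adjusted p = 0.643), while the rise in ARE-/- was called (0.59 ± 0.15, edgeR adjusted p = 0.0366). Other genes of heat shock proteins and their partners, which fold proteins, picked after their values were seen, were called in ARE-/- ovary with no first step: Dnajb1 deviated by -0.34, Stip1 by -0.28, Hspb1 by -0.32 and Hspa8 by -0.28, each with an unadjusted p under 0.05. Others of these families did not pass in ARE-/- ovary: Hsp90aa1 deviated by -0.37, Hspa1a by -0.34 and Hspa1b by -0.33, with edgeR adjusted p of 0.0564, 0.366 and 0.419 for the ARE-/- effect. Hspd1 and Hspe1 deviated by -0.16 and -0.28 and had ARE-/- effects of -0.35 and -0.31 (edgeR adjusted p = 0.320 and 0.278). No list of chaperone genes was tallied. Chordc1, a partner of HSP90, deviated by -0.45 ± 0.09. In the uterus Hsph1 deviated by -0.46, with 55.5, 60.8 and 62.7 CPM in ARE+/-, 50.1, 76.1 and 62.5 CPM in ARE-/-, and 114, 84.2 and 124 CPM in WT, so there both mutants lay below WT.

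Genes of the ovary's endocrine work could not be placed. Steroid synthesis genes had a median deviation of -0.045 in the ovary, with 0 of 16 passing unadjusted and 0 called in either genotype. Cyp11a1, which starts steroid synthesis from cholesterol, had 3297, 5507 and 1839 CPM in ARE+/- ovary, 1526, 932 and 4518 CPM in ARE-/- ovary, and 5192, 5223 and 4369 CPM in WT ovary. The groups overlapped, and ARE-/- replicate 6 stood with WT. The 95% interval of its deviation, -1.17 to 1.31, is wider than the ARE-/- effect of -1.08. Star, which brings cholesterol into mitochondria, deviated by -0.66 ± 1.05, Lhcgr, the luteinizing hormone receptor, by -0.13 ± 0.59 and Prlr, the prolactin receptor, by 0.12 ± 0.55. Akr1c18, which breaks down progesterone, had 14.1, 528 and 5.70 CPM in ARE+/- ovary, 25.1, 0.254 and 12 CPM in ARE-/- ovary and 1125, 79.1 and 345 CPM in WT ovary, with a deviation of 1.19 ± 1.59. Mitochondrial transcripts lay close to the midpoint: 10 of 13 fell in ARE-/- ovary, against 4.15% of all genes. Their median deviation was -0.066 with 1 passing unadjusted.

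In the uterus, hormone receptors and their targets spread as widely. Pgr, the progesterone receptor, deviated by -0.20 ± 0.54 and Esr1, the estrogen receptor, by -0.14 ± 0.28. Ltf, a secreted protein that estrogen induces in uterine epithelium, had 1766, 1832 and 3320 CPM in ARE+/- uterus, 1698, 1105 and 4352 CPM in ARE-/- uterus, and 518, 84.7 and 505 CPM in WT uterus. ARE+/- overlapped ARE-/- and not WT, with a ratio of 0.98 and a deviation of 1.30 ± 0.56 (edgeR adjusted p = 0.888). The progesterone and receptivity list had a median deviation of 0.11 and the estrogen response list one of -0.047, with no ARE-/- call in either.

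The organs shared a set of immune genes above the midpoint; whether the uteri and ovaries came from the same mice is not given. Over all genes tested, 3.18% passed unadjusted above the midpoint in the ovary and 3.93% in the uterus. Of 22575 genes tested in both, 743 in the ovary and 873 in the uterus passed unadjusted above it, and 171 were shared, 23% of the ovary genes and 19.6% of the uterus genes. They include Tap1, Psmb8, Psmb9, Nlrc5, B2m, Ciita, Cd74, Irf1, Cd274, Cxcl10 and Cd8a. Below the midpoint 8 were shared, 1.43% of the 559 ovary and 2.16% of the 371 uterus genes. These shares lie near the 1.61% of all uterus and 2.43% of all ovary genes that passed below. This overlap is therefore no result about its members, among them Hsph1, Dnajc3, Nfil3 and P4ha1. The difference of the deviation, ovary minus uterus, was called for 0 of 26682 genes by edgeR (smallest adjusted p = 0.725), with 1154 passing unadjusted, and for 14 by DESeq2.

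The authors' deposited table of genes under their threshold of 1e-04 groups genes by pattern over the genotypes, and these groups were tallied against the deviation from the same libraries. Its uterus cluster 1 holds 463 of 514 genes, with a median deviation of 0.52 and 353 above the midpoint. Its uterus cluster 2 holds 11 genes, among them Hba-a1, Hba-a2, Hbb-bs, Hbb-bt, Alas2, Pck1 and Slc1a3, with a median deviation of -2.24. In the ovary cluster 1 of the authors' deposited table holds 569 of 719 genes, with a median deviation of 0.36 and 512 above the midpoint, and cluster 4 holds Hsph1 and Tnnt2.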

How the data were processed

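Reads were aligned with STAR and counted with featureCounts 2.0.4 on the GENCODE M32 annotation, per the submitters' processing notes, which also name DESeq2 and mm10. The authors deposited raw counts per gene, 1 matrix for each tissue with 57010 IDs, and a table of adjusted p-values and cluster numbers for a likelihood-ratio test. Per the file headers, mates of a pair were counted singly, reads that map to or overlap several features were counted for each, and no strand option was set, so near-identical copies, overlapping genes and antisense partners are uncertain. A total of 68.1% to 76.4% of the counts from 1 to 20 were even, so counts hold fewer independent fragments than their totals.

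From the deposited counts, edgeR 4.0.16 (R 4.3.3, TMM scaling, filterByExpr, robust quasi-likelihood F-test) fitted the 9 libraries of a tissue without covariates. It kept 24277 uterus and 24457 ovary genes. The contrast was ARE+/- minus the mean of ARE-/- and WT, with log2 fold changes, standard errors and 95% intervals. In a simulated uterus experiment 82% of 50 genes with a log2 deviation of 2 and 30% of those with 1 were called, and in a simulated ovary experiment 98% and 58%. The simulations gave all genotypes the same means, apart from genes of at least 1 CPM that were changed in ARE+/-. Counts were drawn from a negative binomial with the fitted dispersions. They held no ARE-/- effects and no outlying libraries, so these shares are not the power of the test in these data. Replicate p-values measure the spread between these libraries, since the labels do not say more of their independence than the mouse number. Alternatives were RLE size factors, no filter, a mean of at least 1 CPM, a replicate block, limma 3.58.1 on log2(CPM + 1), DESeq2 1.42.0, an adjusted threshold of 0.1, the linear midpoint and leaving out each library.

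The 36 gene lists (8 to 40 genes, 524 of 527 found) and the members were chosen with earlier results of these data known. Genes named were Ifng, a set of interferon, immune and reproductive genes named whatever their result, the 5 of each direction with the smallest p for the deviation, and, among genes of at least 1 CPM with a called log2 fold change of at least 2 in ARE-/-, the 3 with the narrowest interval and the 3 highest and lowest ratios. Some genes of that set are not reported here. Other genes were named from the lists, or are said to have been picked after their values were seen. Irgm1 and the other genes with 2 called steps, the genes that passed in both organs and the clusters of the authors' deposited table are named as complete or partial lists.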

Additional observations from a re-analysis of the deposited data

Results flagged for a closer look

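The deviation of Lyz2, the lysozyme of myeloid cells, was -0.22 in the ovary and 0.24 in the uterus, an ovary-minus-uterus difference of -0.46. It is given here because the ARE+/- libraries of the organs lay on opposite sides of the midpoint; the test of the difference gave an edgeR adjusted p of 0.9995.

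The CD4 and regulatory T cell list had a median deviation of -0.0015 in the ovary and 0.24 in the uterus, a difference of -0.25, for the same reason, and the difference of the medians was not tested.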

How the results depend on the processing

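Signs of the list medians were kept under most alternatives. With no low-count filter the deviation was called for 1 uterus gene (Igkv4-80) and 3 ovary genes, both steps for 1 and 29 genes, and 84.0% of called uterus genes lay on the ARE-/- side; with a mean of at least 1 CPM both steps were called for 0 ovary genes. limma put 76.4% of uterus genes on the ARE-/- side and gave the ovary CD8 list 0.15 and neutrophil list 0.073. DESeq2 called 103 uterus and 34 ovary deviations, 2269 and 3901 genes for ARE-/- against WT, 1028 and 1213 for both mutants, 57 and 103 with both steps, with 77.6% and 70.5% on the ARE-/- side, and 14 differences between organs. Against the linear midpoint, uterus medians were -0.17 (interferon gamma), 0.30 (class I), 0.044 (class II), -0.67 (T cell receptor), -2.46 (adipocyte) and -3.30 (red cell), and ovary medians -0.22, -0.072, -0.24 and -0.39 for the first 4 of these lists, -0.071 (CD8) and 0.21 (neutrophil). Under limma, signs turned for uterus Cd4 (-0.050) and Pgr (0.064) and ovary Ifng (-0.062), Cd8b1 (-0.18), Hba-a2 (-0.0063), Lhcgr (0.017) and Akr1c18 (-0.37). The cause was not tested.

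The replicate numbers were not taken as a pairing. In their deviations from group means, same-numbered uterus libraries correlated at -0.020 to 0.47, over 0.1 in 7 of 9 pairs, among them the 3 of ARE+/- with ARE-/- (0.18, 0.24 and 0.47), a hint from the data and not the design. In the ovary 0 of 5 pairs did (-0.32 to 0.044). With the block 82.7% of 765 called uterus genes lay on the ARE-/- side. ARE+/- ovary replicate 4 and ARE-/- ovary replicate 6 are the only ovary libraries with their numbers. The block therefore fits each of them by itself, and they carry no weight in the ovary contrasts. Ovary values with the block thus mix a pairing with the loss of these libraries. With the replicate block the ovary gave 1544 genes for ARE-/- against WT, 58 for both mutants, 0 with both steps and 47.0% on the ARE-/- side. Its list medians were -0.10 (T cell receptor), 0.17 (CD8) and -0.60 (smooth muscle). The block turned uterus Cyp11a1 (0.85), Hsd3b1 (0.43) and Lhcgr (0.39), and ovary Cd3e (-0.30), Mx1 (-0.14), C4b (-0.085), Plin1 (-0.12), Adipoq (-0.37), Hba-a2 (-0.35), Star (0.39) and Lhcgr (0.56).

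Leaving out 1 library gave 0 to 3 uterus and 0 to 1 ovary deviations, 192 to 1322 and 785 to 3262 genes for ARE-/- against WT, 0 to 563 and 75 to 700 for both mutants, and 0 to 1 and 0 to 13 with both steps. The share on the ARE-/- side was 64.2% to 92.6% and 61.8% to 84.3%. List medians were 0.27 to 0.83 (interferon gamma) and 0.43 to 1.10 (type I) in the uterus and -0.053 to 0.61 (neutrophil) and -0.53 to 0.49 (red cell) in the ovary. Signs turned within these ranges, in the uterus for Gzmb -0.088 to 0.71, Cd4 -0.20 to 0.26, Mx1 -0.15 to 0.83, Plin1 -0.86 to 0.17, Adipoq -0.76 to 0.42, Cyp11a1 -1.42 to 2.06, Hsd3b1 -2.85 to 2.09, Lhcgr -2.42 to 1.73, Inha -1.05 to 0.49, Pgr -0.40 to 0.35, Esr1 -0.27 to 0.072; and in the ovary for Plin1 -0.012 to 0.83, Hba-a2 -0.49 to 0.50, Col1a1 -0.69 to 0.23, Pgr -0.80 to 0.26, Cyp11a1 -0.40 to 0.52, Hsd3b1 -0.20 to 0.29, Prlr -0.25 to 0.57, Akr1c18 -3.02 to 1.82, Cd3e -0.089 to 0.48, Lhcgr -0.34 to 0.44, Cd4 -0.52 to 0.042, Inha -0.016 to 0.24, Star -1.24 to 0.085.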

Other observations

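Proliferation genes, not called in either mutant, lay above the midpoint in 20 of 21 cases in the ovary and 15 of 21 in the uterus, with median deviations of 0.26 and 0.24, and in 17 ovary and 19 uterus genes ARE+/- also lay above ARE-/-. The sign was not stable in the uterus: the list's ARE+/- libraries sat at 0.47, 0.66 and -1.17, 0 of 21 genes had all 3 above the midpoint, limma gave a median of -0.0084, and leaving out 1 library gave -0.093 to 0.53. In the ovary leaving out 1 library gave 0.066 to 0.41. Natural killer cell genes had a median deviation of 0.53 in the ovary. There 7 of 12 rose in ARE-/- and 2 in ARE+/-, where all genes gave 6.31% and 1.35%. In the uterus their median deviation was 0.54, while 0 rose in either mutant and 1 fell in ARE-/-. The ARE-/- uterus libraries split, with median positions of -0.64, 0.57 and 0.44 in replicates 1, 2 and 3. Cholesterol synthesis genes lay below the midpoint in 15 of 16 cases in both organs, with median deviations of -0.17 in the ovary and -0.39 in the uterus, and 0 were called in either mutant.

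Outside the globins, the uterus genes with a second step alone, found after their values were seen, included Pck1, the enzyme that starts gluconeogenesis. It had 3.56, 1.36 and 7.95 CPM in ARE+/- uterus, 414, 39.9 and 29.1 CPM in ARE-/- uterus, and 4.72, 2.60 and 4.24 CPM in WT uterus. Fcna, a lectin of the complement system, had 1.46, 1.51 and 1.46 CPM in ARE+/- uterus, 57.7, 5.79 and 5.03 CPM in ARE-/- uterus, and 1.05, 1.54 and 1.64 CPM in WT uterus. In both genes ARE-/- replicate 1, the library with the highest adipocyte and red cell markers, was the highest.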
